A study of Mus musculus with 6 samples.

Results

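The proprotein convertases are subtilisin-like serine proteases of the secretory pathway. The 8 genes examined were Furin, Pcsk1, Pcsk2, Pcsk4, Pcsk5, Pcsk6, Pcsk7 and Mbtps1, taken by gene symbol from the 49671 genes of the count table. The family was proposed because Pcsk5 stood among the largest falls after Tcf7l2 deletion in an earlier description of the same libraries, so the values of Pcsk5 are given as a description, without a test. The other 7 genes belong by name, although the family was drawn up with earlier results of these data known. Of the 8 genes, 6 had enough counts to be tested and Pcsk1 and Pcsk2 did not.

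RNA-seq compared differentiated mouse preadipocytes in which Tcf7l2 had been deleted (knockout, 3 libraries) with cells of the same line that had received only ethanol (control, 3 libraries). Tcf7l2 encodes a TCF/LEF protein, the kind of DNA-binding factor that beta-catenin joins when Wnt signalling is on. Preadipocytes were sorted from the inguinal fat of C57BL/6 mice aged 3 months that carried floxed Tcf7l2 (F/F), were made immortal with the SV40 large T antigen, and received a retroviral CreERT2, a Cre recombinase that 4-hydroxytamoxifen switches on. Knockout cells were exposed to 4-hydroxytamoxifen and control cells to ethanol for 24 h, 2 days before differentiation with dexamethasone, isobutylmethylxanthine (0.5 mM) and insulin, and were taken at day 8. Control cells are labelled wild type, but they share the floxed alleles, CreERT2 and large T antigen with the knockout cells. Deletion and drug exposure coincide in this design and cannot be told apart. The labels also name an agent at 5 nM whose code differs in every library, and whether the agent itself differed is not settled by them. The labels describe an inducible knockout line without saying whether it is a clone, and no label says whether replicates were grown as independent cultures. The p-values thus reflect only how far these 6 libraries scatter, which could be technical scatter.

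Convertases cut inactive precursors of hormones, growth factors, receptors, adhesion molecules and proteases as these pass through the Golgi, the secretory granules or the cell surface. Furin, Pcsk4, Pcsk5, Pcsk6 and Pcsk7, and the granule enzymes Pcsk1 and Pcsk2, cut after basic residues. Mbtps1, the site-1 protease, cuts after other residues and makes the first cut in the release of the membrane-bound transcription factors SREBP and ATF6. In fat cells, substrates of these enzymes include the insulin receptor, and convertases also cleave lipoprotein lipase and its angiopoietin-like inhibitors.

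The libraries held 26621293 to 33484764 counts. Control replicate 3 and knockout replicate 2 stood apart from the other 4 libraries on the second principal component (15.9% of the variance), which did not separate the groups. Tcf7l2 itself was at 5.65, 6.85 and 5.86 CPM in the knockout libraries and at 7.71, 6.13 and 9.11 CPM in the control libraries, where CPM is a count scaled to a common library size by TMM. The groups overlapped, and Tcf7l2 missed the threshold (edgeR adjusted p = 0.125; log2 fold change -0.32, SE 0.14) except when control replicate 2 was removed (edgeR adjusted p = 0.0322). A gene-wide count cannot show whether the floxed exons were lost. The 5 adipocyte markers Adipoq, Plin1, Fabp4, Cidec and Lipe were all called higher in knockout cells, and their summed level was 8131 to 9847 CPM in knockout and 5568 to 5818 CPM in control libraries. Over all tested genes, 11.9% were called higher and 10.5% lower. Of 8 fibroblast and adipose progenitor markers, Col3a1 was called lower and 7 were not called. Their summed level was 23109 to 24285 CPM in knockout and 27240 to 28484 CPM in control libraries. Most of that sum was Col3a1, which averaged 20526 CPM in knockout and 24963 CPM in control cells, so the sum does not describe the other 7. The macrophage marker Adgre1 had 0 counts in all libraries and the endothelial markers Pecam1 and Cdh5 had at most 6. The macrophage markers Cd68 and Csf1r were detected, and neither was called. They averaged 1.75 and 2.75 CPM in knockout and 1.44 and 2.85 CPM in control cells. Of the remaining marker genes, the endothelial gene Kdr and the pericyte gene Rgs5 were called higher in knockout cells. The 4 endothelial markers summed to 26.6 to 28.1 CPM in knockout and 23.1 to 25.1 CPM in control libraries. The 3 smooth muscle and pericyte markers summed to 501.8 to 537 CPM in knockout and 457.6 to 486 CPM in control libraries. Nearly all of that sum was Acta2, which was not called (edgeR adjusted p = 0.0542). Rgs5 averaged only 1.89 CPM in knockout and 1.18 CPM in control cells. Myh11 averaged 7.93 CPM in knockout and 9.17 CPM in control cells and was not called.

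The regions around the starts of Pcsk5 and Pcsk6 are shown because these convertases had opposite changes, and that of Pcsk1 because it was the only family promoter searched that held the TCF/LEF core CTTTGA. Each window runs from 250 bases before to 50 bases after the annotated start (RefSeq, GRCm38.p6), 5′ to 3′ on the gene's strand. Pcsk5 lies on the minus strand (chr19:17837583-17837882), Pcsk6 on the plus strand (chr7:65861886-65862185) and Pcsk1 on the plus strand (chr13:75089607-75089906). Capitals mark matches, on either strand, to CTTTGA, to the GC box GGGCGG or to the cAMP response element TGACGTCA.
Pcsk5: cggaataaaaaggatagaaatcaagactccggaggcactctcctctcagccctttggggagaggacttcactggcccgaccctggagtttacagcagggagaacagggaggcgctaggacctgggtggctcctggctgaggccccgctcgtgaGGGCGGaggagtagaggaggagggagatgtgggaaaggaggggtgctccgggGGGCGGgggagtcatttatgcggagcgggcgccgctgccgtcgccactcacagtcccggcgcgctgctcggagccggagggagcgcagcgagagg
Pcsk6: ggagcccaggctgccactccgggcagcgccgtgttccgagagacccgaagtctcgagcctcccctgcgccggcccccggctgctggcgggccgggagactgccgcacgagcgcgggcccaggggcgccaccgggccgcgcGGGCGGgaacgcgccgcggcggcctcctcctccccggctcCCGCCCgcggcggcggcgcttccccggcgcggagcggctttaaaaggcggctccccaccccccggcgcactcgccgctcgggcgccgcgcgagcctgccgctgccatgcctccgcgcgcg
Pcsk1: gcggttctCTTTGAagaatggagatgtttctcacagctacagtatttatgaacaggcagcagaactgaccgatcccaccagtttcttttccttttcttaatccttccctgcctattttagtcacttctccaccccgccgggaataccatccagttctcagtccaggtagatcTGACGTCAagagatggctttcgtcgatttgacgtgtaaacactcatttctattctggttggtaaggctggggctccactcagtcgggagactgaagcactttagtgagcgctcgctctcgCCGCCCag

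The promoter table held 8 windows for 7 of the 8 genes, 2 of them for Furin. The Pcsk5 and Pcsk6 windows each held 2 GC boxes, a motif found in 35.7% of all 32851 mouse promoter windows of the same length. The Pcsk6 window was far denser in CG dinucleotides (52) than that of Pcsk5 (22), against a median of 7 over all windows. CTTTGA occurred in 16% of all windows and in the Pcsk1 window, and in no other window of the family. The Pcsk1 window also held TGACGTCA, which occurred in 1.79% of all windows. The searched letters in a window are a description and do not show binding, and their absence says only that they are not in these 300 bases.

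Pcsk5 was lower and Pcsk6 higher in knockout cells, while the most abundant members, Mbtps1 and Pcsk7, had almost the same level in both groups. Beside Pcsk5, which is described without a test, Pcsk6 was called higher, and Furin, Pcsk4, Pcsk7 and Mbtps1 were not called. Among all 14946 tested genes, 22.4% were called, 11.9% higher and 10.5% lower in knockout cells. Because the family was proposed with these results known, nothing is read from its own count of calls. The median log2 fold change of the 6 tested members was 0.10, beside -0.0017 over all tested genes.

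Pcsk5 encodes PC5/6, a convertase made as a soluble and as a membrane-bound form, which is known from knockout mice to process the growth factor Gdf11. It lies on GRCm38 chromosome 19 (17432319 to 17837632, minus strand; ENSMUSG00000024713). Its level was 12.7, 12.4 and 12.5 CPM in the knockout libraries and 28.1, 31.7 and 28.2 CPM in the control libraries. Every knockout library lay below every control library, a separation that follows in part from the choice of Pcsk5 for its fall. The groups also did not overlap, in either direction, for 37.9% of all tested genes. The knockout libraries differed among themselves by less than 1 CPM. The fitted level was 2.34-fold lower in knockout cells (log2 fold change -1.23), from 336 to 389 counts per knockout library and 748 to 942 per control library. Across 15 alternative settings the log2 fold change ran from -1.26 to -1.17. This range describes the processing and is not support for the fall, because Pcsk5 was chosen for it. In bulk RNA, fewer cells with the transcript and less transcript per cell cannot be told apart. The nearest protein-coding neighbours, chosen by position with clone-named genes left out, were Rfk, 31 kb away, and Ostf1, 678.5 kb away. Rfk encodes riboflavin kinase. Rfk averaged 41.7 ± 1.6 CPM in knockout and 46.3 ± 2.47 CPM in control cells (SD, n = 3 each) and was not called (edgeR adjusted p = 0.0811), nor was Ostf1 (edgeR adjusted p = 0.207). Gene-wide counts do not separate the soluble and membrane-bound forms.

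Pcsk6 encodes PACE4, a secreted convertase that binds heparan sulfate outside the cell and is known in mice to activate the TGF-beta family ligand Nodal. It lies on chromosome 7 (65861734 to 66050386, plus strand; ENSMUSG00000030513). Its level was 11.3, 11.8 and 10.9 CPM in the knockout libraries and 7.92, 7.83 and 7.68 CPM in the control libraries. The groups did not overlap, which also held for 37.9% of all tested genes. Pcsk6 was 1.45-fold higher in knockout cells (log2 fold change 0.54, SE 0.085; 95% interval 0.35 to 0.72; edgeR adjusted p = 4.51e-04). It was called in each of the 15 alternatives, with log2 fold changes of 0.49 to 0.56. Its neighbours by the same rule, Snrpa1, 8.62 kb away, and Tm2d3, 159.8 kb away, were not called (edgeR adjusted p = 0.056 and 0.52). Pcsk6 shares 3.01% of its exonic bases with the clone-named protein-coding gene Gm45213 on the same strand, which averaged 0 CPM. The 5 adipocyte markers were higher in the same libraries as Pcsk6, and in those where Pcsk5 was lower. Their part in either difference was not tested.

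**Figure D1:**
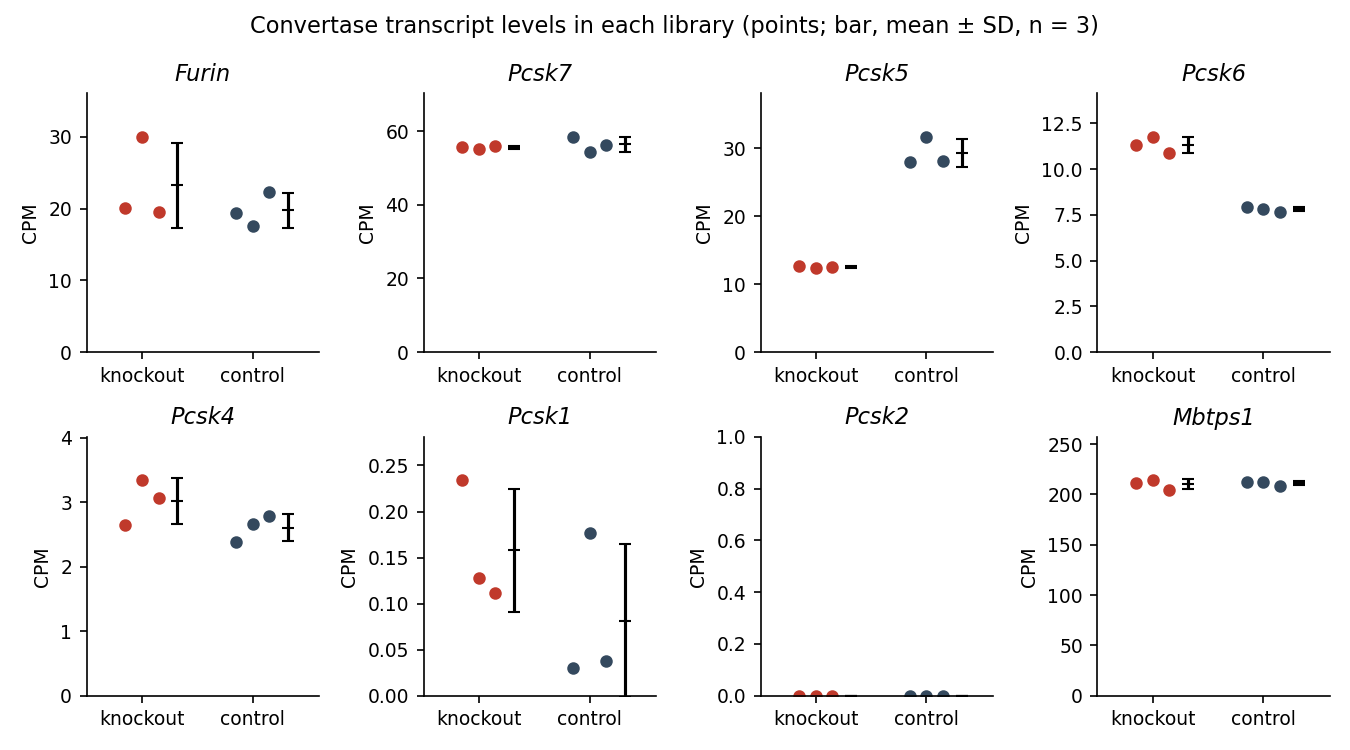
Transcript level (CPM, vertical axis from 0) of the 8 convertase genes in each of 3 knockout and 3 control libraries (points), with the mean ± SD of each group as a bar beside them. Pcsk5 sits near 12.5 CPM in knockout libraries, below all control libraries, Pcsk6 sits above its control libraries, and knockout replicate 2 is the highest point for Furin at 30 CPM.

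Furin, which encodes the widely expressed convertase of the trans-Golgi network, varied more between libraries than between groups. It lies on chromosome 7 (80388585 to 80405436, minus strand). Its level was 20.1, 30 and 19.6 CPM in the knockout libraries and 19.4, 17.5 and 22.4 CPM in the control libraries. The highest library of each group was knockout replicate 2 or control replicate 3, the libraries set apart on the second principal component, whose part in the value was not tested. The fitted log2 fold change of Furin was 0.24 (95% interval -0.21 to 0.69), below the threshold for a call (edgeR adjusted p = 0.432). The log2 fold change was 0.0069 without knockout replicate 2 (edgeR adjusted p = 0.97) and 0.10 without both libraries (edgeR adjusted p = 0.388). The nearest protein-coding neighbour of Furin, clone-named genes left out, was Fes, 0.638 kb away, which encodes a tyrosine kinase. Fes averaged 15.6 ± 0.49 CPM in knockout and 16 ± 0.9 CPM in control cells (SD, n = 3 each) and was not called (edgeR adjusted p = 0.781).

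Pcsk7, which encodes the membrane-bound convertase PC7, lies on chromosome 9 (45906497 to 45929726, plus strand). It was at 55.7, 55.1 and 55.9 CPM in the knockout libraries and at 58.5, 54.2 and 56.3 CPM in the control libraries. All knockout values lay within the range of the control values, and the 95% interval of the fitted change ran from 0.913-fold to 1.06-fold (edgeR adjusted p = 0.811). Pcsk7 shares 2.08% of its exonic bases with the more abundant gene Tagln, on the opposite strand, and 7.98% with Rnf214. Neither partner was called (edgeR adjusted p = 0.993 and 0.829).

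Pcsk4 encodes a convertase known from male germ cells in mice, and lies on chromosome 10 (80321283 to 80329498, minus strand). It was low, at 2.64, 3.34 and 3.06 CPM in the knockout libraries and at 2.38, 2.66 and 2.79 CPM in the control libraries. The groups overlapped, and with 74 to 105 counts per library the 95% interval reached from 0.934-fold to 1.44-fold (edgeR adjusted p = 0.332).

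The convertases of neuroendocrine secretory granules were at or near the detection limit. Pcsk1, which encodes the enzyme that first cuts proinsulin and pro-opiomelanocortin, had 7, 4 and 3 counts in the knockout libraries and 1, 5 and 1 counts in the control libraries. These counts overlap between the groups and were too low for the test. Pcsk2, which encodes the companion enzyme of late granules, had 0 counts in all 6 libraries. A count of 0 allows up to 3 counts, or 0.0952 to 0.112 CPM in the knockout libraries and 0.0896 to 0.113 CPM in the control libraries, counting error only. Their dedicated partners were as low. Pcsk1n, encoding the Pcsk1 inhibitor proSAAS, had at most 2 counts in a library, and Scg5, encoding the Pcsk2 chaperone 7B2, at most 5.

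Mbtps1 was the most abundant member. It lies on chromosome 8 (119508156 to 119558735, minus strand). Its level was 211.5, 214.3 and 204.5 CPM in the knockout libraries and 212.1, 212.3 and 208.7 CPM in the control libraries. The groups overlapped and the 95% interval of the change ran from 0.933-fold to 1.06-fold (edgeR adjusted p = 0.939).

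**Figure D2:**
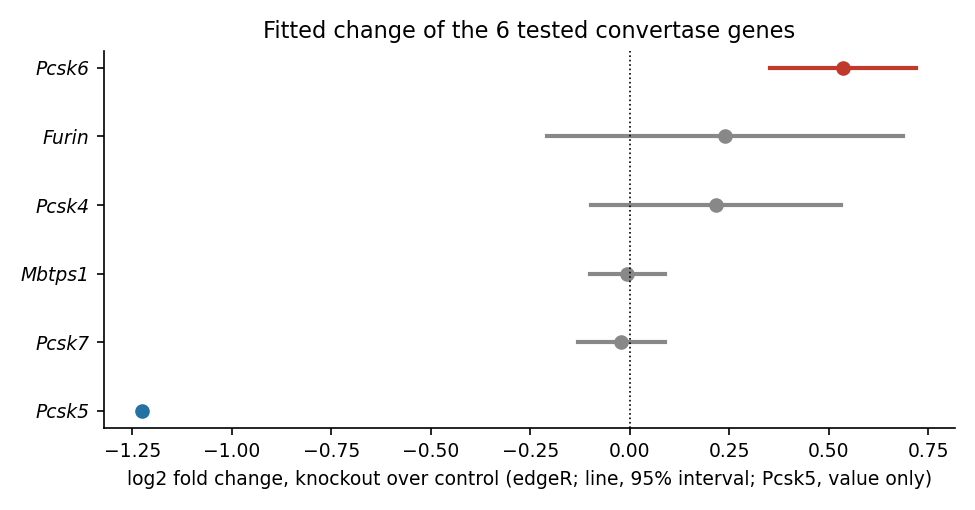
Fitted log2 fold change, knockout over control (horizontal axis), of the 6 tested convertase genes, with edgeR's 95% interval as a line for all but Pcsk5, whose value is a description. The interval of Pcsk6 lies above 0, those of Furin and Pcsk4 are wide and span 0, and those of Mbtps1 and Pcsk7 are narrow around 0.

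Levels of different genes were set side by side as CPM per kilobase of annotated exon. On this scale, knockout libraries had 19.9 ± 0.478 for Mbtps1, 10.7 ± 0.0819 for Pcsk7, 2.53 ± 0.642 for Furin, 2.18 ± 0.0885 for Pcsk6, 1.02 ± 0.12 for Pcsk4 and 0.868 ± 0.0099 for Pcsk5 (SD, n = 3). Control libraries had 20 ± 0.191 for Mbtps1, 10.8 ± 0.408 for Pcsk7, 2.15 ± 0.266 for Furin, 2.03 ± 0.145 for Pcsk5, 1.51 ± 0.0231 for Pcsk6 and 0.882 ± 0.0699 for Pcsk4 (SD, n = 3). In order of level, Pcsk5 thus stood above Pcsk6 and Pcsk4 in every control library and below both in every knockout library. Furin and Pcsk6 overlapped in the knockout libraries, and Furin and Pcsk5 overlapped in the control libraries. The level of Pcsk6 over that of Pcsk5 was 2.48, 2.65 and 2.41 in the knockout libraries and 0.786, 0.687 and 0.759 in the control libraries. Exon length was summed over all annotated isoforms, so a gene with a long, rarely used exon is understated on this scale.

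Summed over the 7 genes that cut at basic residues, the level was 16.9, 18.1 and 16.9 CPM per kilobase in the knockout libraries and 17.6, 17 and 17.6 in the control libraries, and the groups overlapped. Pcsk5 made up 4.73% to 5.2% of that sum in the knockout libraries and 11% to 12.9% in the control libraries. Pcsk6 made up 12.4% to 12.9% in the knockout libraries and 8.39% to 8.89% in the control libraries. Pcsk7 held the greatest share in all libraries, 58.4% to 63.6% in knockout and 61.4% to 63.7% in control. These shares are of transcript and not of enzyme activity.

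**Figure D3:**
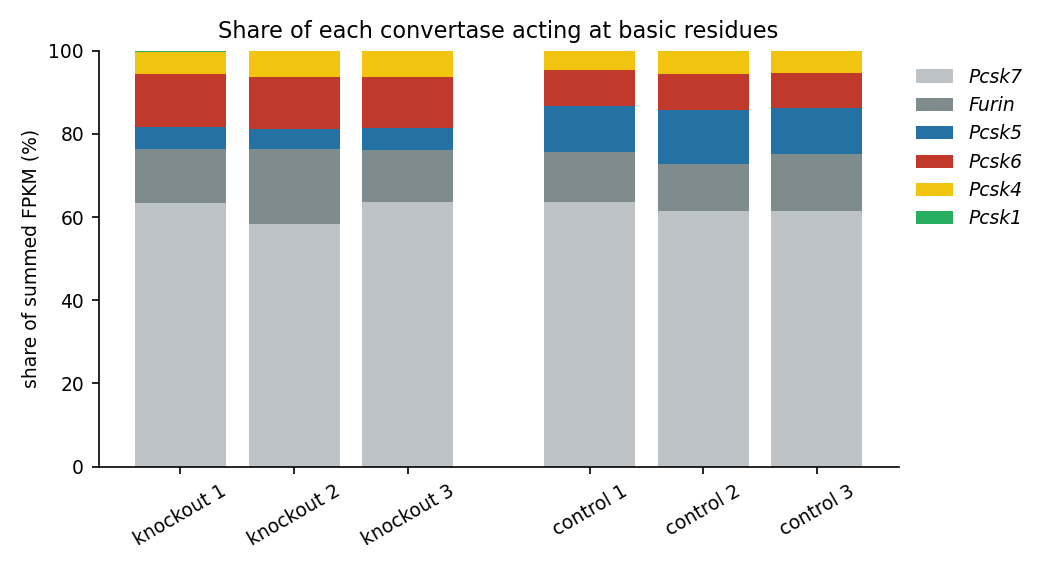
Share (percent, vertical axis) of each gene in the summed CPM per kilobase (axis label FPKM) of the convertases that cut at basic residues, for the 3 knockout and 3 control libraries; Pcsk2, at 0, is not drawn. Pcsk5 takes about 5% in each knockout library and at least 11% in each control library, Pcsk6 is the wider band in the knockout libraries, and Pcsk7 takes more than 58% throughout.

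Genes whose level followed a member most closely across the 6 libraries were found by Pearson correlation of log2 CPM, a description without a test, in which all points share the same libraries and depth. Closest to Pcsk5 were Metrnl (r = 0.999), Cmtm7 (r = 0.999) and Nmral1 (r = 0.998), whose log2 fold changes were -0.25, -0.36 and -0.24. Closest to Pcsk6 were Pcolce2 (r = 0.998), Phlda3 (r = 0.997) and Kcne4 (r = 0.997). Pcolce2, whose product enhances procollagen cleavage, averaged 22.4 CPM in knockout and 11.1 CPM in control cells. Closest to Furin were Mrgprf (r = 0.995), Ipo13 (r = 0.991) and Ermp1 (r = 0.988). For Pcsk4 they were Cox11, Ston1 and Atf7ip (r = 0.993 or more), for Pcsk7 Hp1bp3, Poc5 and Mob2 (0.957 or more) and for Mbtps1 Lcmt2, Plekhh2 and Got2 (0.963 or more). With 6 libraries in 2 groups, the correlations for Pcsk5 and Pcsk6 rest mainly on the difference between the groups. Each named gene was the closest of many, so a high r over 6 libraries follows in part from the choice. Furin stood at 30 CPM in knockout replicate 2 and at 17.5 to 22.4 CPM in the rest. Mbtps1 spanned only 204.5 to 214.3 CPM.

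Genes that act with the convertases or whose products they cut were followed in 8 lists holding 111 genes, of which 92 were tested. Of these, 25 were called higher and 12 lower in knockout cells (40.2% called, beside 22.4% of all tested genes), and the median log2 fold change was 0.069. The lists were chosen with earlier results known, and several of their genes were already known to differ.

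Of 4 tested inhibitors and sorting factors, 1 was called (25%, beside 22.4% of all tested genes). Serpinb8, a serpin whose human counterpart inhibits furin, was called lower, 1.28-fold, at 19.3 ± 2.14 CPM in knockout and 24.7 ± 0.573 CPM in control cells (SD, n = 3 each; edgeR adjusted p = 0.00581). Pacs1, Gbp5 and Gbp2 were not called. Gbp2, an interferon-induced GTPase whose human counterpart restrains furin, was at 192 ± 22.1 CPM in knockout and 156.7 ± 20.5 CPM in control cells (edgeR adjusted p = 0.121). Without control replicate 3 or knockout replicate 1, 3 of the list were called in place of 1, Gbp2 among them (edgeR adjusted p = 0.023 and 0.0253).

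Enzymes that finish a peptide after the convertase cut were abundant. Of 5 tested, 2 were called (40%, beside 22.4% of all tested genes). Cpe and Cpd, the carboxypeptidases that trim the exposed basic residues, and the amidating enzyme Pam averaged 230.5, 177.2 and 278.2 CPM in knockout and 210.6, 178.6 and 270.3 CPM in control cells, and none was called. Cpz, a carboxypeptidase of the extracellular matrix, rose 1.3-fold to 123 ± 11.6 CPM in knockout cells, against 94.4 ± 5.91 CPM in control cells (edgeR adjusted p = 0.00143). Qpct, which forms pyroglutamate at peptide ends, fell 1.25-fold to 65.2 ± 3.1 CPM in knockout cells, against 81.7 ± 3.12 CPM in control cells (edgeR adjusted p = 5.58e-04). Of 5 granin genes 1 was tested. Scg2, secretogranin II, whose product convertases cut into peptides, was at 142.3, 119.2 and 130.3 CPM in the knockout libraries and at 60.6, 79 and 63.8 CPM in the control libraries. The groups did not overlap, which also held for 37.9% of all tested genes, and Scg2 rose 1.93-fold (edgeR adjusted p = 4.28e-04). Chga, Chgb, Scg3 and Vgf were too low to be tested.

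Of 15 genes of the site-1 protease pathway, 3 rose, 2 fell and 10 were not called (33.3%, beside 22.4% of all tested genes). Srebf1, which encodes the lipogenic substrate SREBP-1, rose 1.57-fold to 366 ± 37.9 CPM in knockout cells, against 232.9 ± 19.6 CPM in control cells (edgeR adjusted p = 1.67e-04). Insig1, whose product holds SREBP back in the endoplasmic reticulum, rose 1.51-fold to 720 ± 23.1 CPM in knockout cells, against 477.3 ± 9.53 CPM in control cells (edgeR adjusted p = 1.67e-06). Gnptab, which encodes a precursor that the site-1 protease splits for tagging of lysosomal enzymes, rose 1.15-fold (edgeR adjusted p = 0.00893), a call lost when control replicate 1 was removed (edgeR adjusted p = 0.0532). Creb3l3 fell 1.71-fold to 5.27 ± 1.07 CPM in knockout cells, against 8.95 ± 0.859 CPM in control cells (edgeR adjusted p = 0.00133). Creb3 fell 1.13-fold (edgeR adjusted p = 0.0267), a call lost on removal of control replicate 1, knockout replicate 2 or knockout replicate 3 (edgeR adjusted p = 0.134, 0.0523 and 0.0793). Creb3 shares 15.2% of its exonic bases with the more abundant Tln1 on the opposite strand, so its count is uncertain if strand was not used. Without control replicate 1, 3 genes of the list were called.

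Of the 10 genes of the list that were not called, Mbtps2, Scap and Srebf2 were chosen for mention after their values were seen. Mbtps2, the protease that makes the next cut after Mbtps1, averaged 13.9 ± 0.976 CPM in knockout and 14.2 ± 0.564 CPM in control cells (SD, n = 3 each) and was not called (edgeR adjusted p = 0.853). Scap, the SREBP escort, and Srebf2 averaged 83.3 and 60.1 CPM in knockout and 89.6 and 64.5 CPM in control cells. Both missed the threshold (edgeR adjusted p = 0.434 and 0.532), but without knockout replicate 2 both were called lower (edgeR adjusted p = 0.0113 and 0.0298). Without both libraries set apart on the second principal component, Scap was called (edgeR adjusted p = 0.0234).

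**Figure D4:**
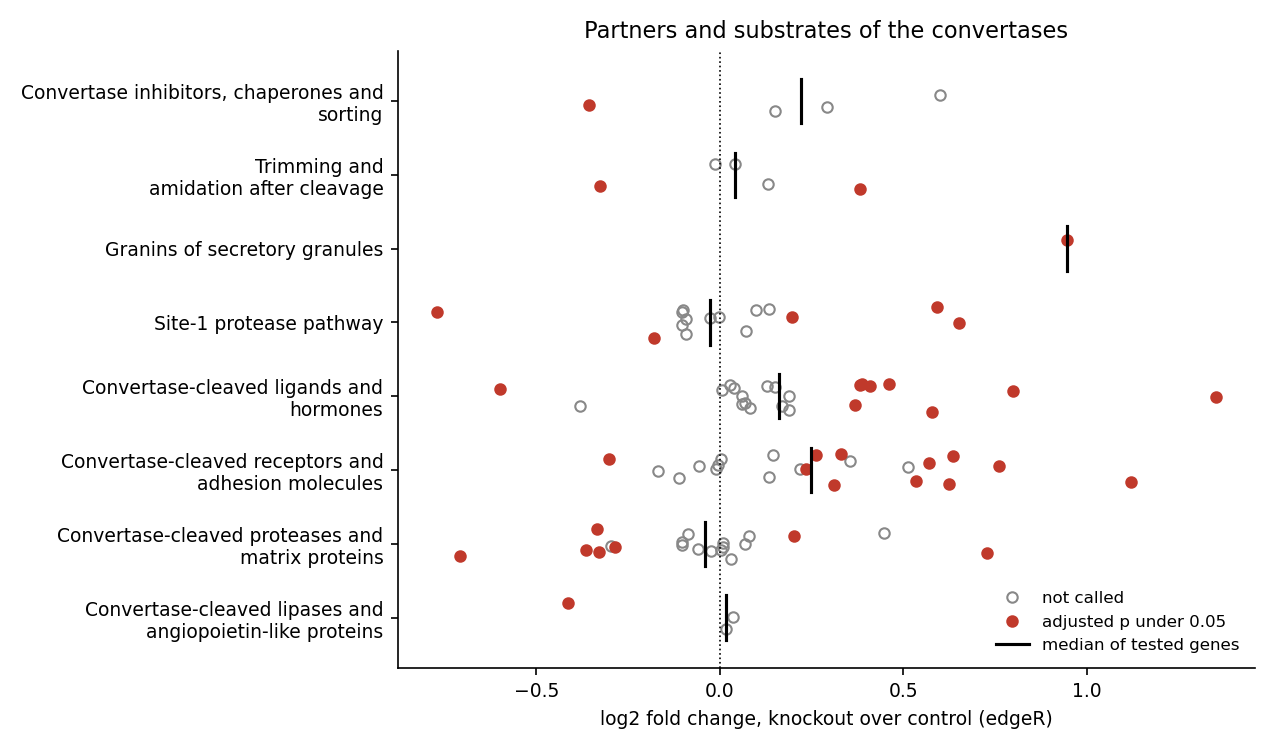
Fitted log2 fold change, knockout over control (horizontal axis), of each tested gene in the 8 lists of convertase partners and substrates (rows), with filled points for an adjusted p under 0.05, open points for genes not called and a bar for the list's median. Receptors and adhesion molecules, and ligands, have more called genes above 0 than below it, while proteases and matrix proteins have more below it.

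Of 22 tested ligands and hormones made as convertase-cleaved precursors, 8 rose, 1 fell and 13 were not called (40.9%, beside 22.4%), with a median log2 fold change of 0.16. Tnfsf13b, the B-cell activating factor BAFF, rose 1.49-fold to 9.52 ± 0.324 CPM in knockout cells, against 6.38 ± 0.139 CPM in control cells (edgeR adjusted p = 3.95e-04). Sema3a, a secreted guidance protein, fell 1.51-fold to 66.8 ± 6.38 CPM in knockout cells, against 101 ± 3.68 CPM in control cells (edgeR adjusted p = 2.28e-05). Igf2 was low, at 1.88 ± 0.203 CPM in knockout and 0.735 ± 0.0165 CPM in control cells, and was called 2.55-fold higher (edgeR adjusted p = 1.91e-04). It shares 62.8% of its exonic bases with Gm49394 on the same strand, which is not among the genes of the count table. Reads from Gm49394 over the shared bases can thus not be told from those of Igf2. Nppc, the C-type natriuretic peptide gene, was 1.74-fold higher at 1.33 ± 0.178 CPM in knockout and 0.752 ± 0.113 CPM in control cells (edgeR adjusted p = 0.0173), but missed the threshold in DESeq2 (adjusted p = 0.0916), and in edgeR once control replicate 2 or knockout replicate 3 was removed (adjusted p = 0.0762 and 0.0804). Gdf11, named because Pcsk5 processes it in mice and with its value already seen, averaged 34.1 ± 2.96 CPM in knockout and 34 ± 1.72 CPM in control cells and was not called (edgeR adjusted p = 0.964).

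Of 22 tested receptors and adhesion molecules, 10 rose, 1 fell and 11 were not called (50%, beside 22.4%), with a median log2 fold change of 0.25. The sorting receptor genes Sorl1 and Sort1, whose own propeptides convertases remove, rose most. Sorl1 rose 2.17-fold to 43.4 ± 2.74 CPM in knockout cells, against 20 ± 1.9 CPM in control cells (edgeR adjusted p = 6.83e-07). Sort1 rose 1.7-fold to 176.8 ± 2.58 CPM in knockout cells, against 104.3 ± 2.63 CPM in control cells (edgeR adjusted p = 3.39e-07). The laminin-binding integrin gene Itga6 rose 1.55-fold (edgeR adjusted p = 5.45e-06). Atp6ap2, the prorenin receptor gene, fell 1.23-fold to 112 ± 5.16 CPM in knockout cells, against 137.9 ± 7.84 CPM in control cells (edgeR adjusted p = 0.00125). The insulin receptor gene Insr, chosen after its value was seen, rose 1.26-fold (edgeR adjusted p = 4.36e-04).

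Among proteases and matrix proteins cut by convertases, 2 of 20 tested genes rose, 5 fell and 13 were not called (35%, beside 22.4%), with a median log2 fold change of -0.041. Mmp14, a membrane-bound collagenase that furin-like enzymes activate, fell 1.29-fold to 428.2 ± 28.6 CPM in knockout cells, against 551 ± 10.9 CPM in control cells (edgeR adjusted p = 2.30e-04). The aggrecan-cleaving protease gene Adamts4 fell 1.63-fold to 43.7 ± 1.19 CPM in knockout cells, against 71.4 ± 4.54 CPM in control cells (edgeR adjusted p = 2.06e-06). Adamts9 rose 1.66-fold to 53.8 ± 2.67 CPM in knockout cells, against 32.5 ± 2.14 CPM in control cells (edgeR adjusted p = 3.36e-06). Mmp11 fell 1.26-fold (edgeR adjusted p = 0.0118), a call lost when control replicate 3 and knockout replicate 2 were both removed (adjusted p = 0.124). Bace1 rose 1.15-fold (edgeR adjusted p = 0.0115), which was lost when control replicate 1 was removed (edgeR adjusted p = 0.0654), and shares 15.4% of its exonic bases with Rnf214 on the opposite strand.

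Of 3 tested lipases and angiopoietin-like proteins that convertases cut, 1 was called (33.3%, beside 22.4% of all tested genes). Lipg, endothelial lipase, fell 1.33-fold to 79.5 ± 1.24 CPM in knockout cells, against 105.9 ± 1.84 CPM in control cells (edgeR adjusted p = 2.11e-05). Its 3 knockout libraries all lay below its 3 control libraries, and groups did not overlap for 37.9% of all tested genes. Angptl4, an inhibitor of lipoprotein lipase, was at 314.7 ± 18.2 CPM in knockout and 311.1 ± 25.6 CPM in control cells and was not called (edgeR adjusted p = 0.885), and neither was Lpl. These lists measure transcripts, and whether any precursor was cut more or less was not measured.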

How the data were processed

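Total RNA depleted of ribosomal RNA was made into strand-specific libraries, per the labels' protocols. The deposited table holds raw read counts per Ensembl gene for 6 libraries. Per the submitters' processing notes, GRCm38 was the build, and the tools listed are featureCounts 1.5.1, STAR 2.5.2b and DESeq2 1.16.0. Not given in the sources used here are the annotation release, the strand setting and how multi-mapping reads were counted. Columns were matched to samples by library number and to groups by the genotype label. A symbol was found for 49412 genes and not for 259. Coordinates, exon lengths and overlaps come from GENCODE M21 (GRCm38), which may differ from the release used for counting, and promoters from RefSeq (GRCm38.p6).

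Knockout and control were compared across 14946 genes by edgeR's quasi-likelihood test (version 4.0.16, R 4.3.3; robust, TMM scaling, filterByExpr with its minimum count of 10, group as the only term), with calls at p under 0.05 after Benjamini-Hochberg adjustment over all tested genes. SE is the size of the log2 fold change over the square root of F. The common biological coefficient of variation was 5.91%. No pair of libraries of a group agreed within sampling noise (chi-square per degree of freedom 4.29 to 14.8).

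Members and lists were chosen with earlier results of these data known. Named genes are all members, up to 3 called genes per direction of each list (average log2 CPM of at least 0), and the 3 genes most correlated with each tested member (average log2 CPM of at least 2). Other genes of the lists, among them Gbp2, Cpe, Cpd, Pam, Lpl and Angptl4, were named outside this rule, with earlier results known. Alternatives were scaling by total counts, by the upper quartile or by DESeq2's size factors, no filter or a CPM of at least 1 in 3 libraries, DESeq2 1.42.0, limma-voom (limma 3.58.1), an adjusted p of 0.01 and leaving out each library. A fit without both libraries that stood apart (control replicate 3, knockout replicate 2) was added after the data had been seen. Some listed genes are not reported here.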

Additional observations from a re-analysis of the deposited data

How the results depend on the processing

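Pcsk6 was called and Furin, Pcsk4, Pcsk7 and Mbtps1 were not in each of the alternatives run, and no called gene named in the text reversed. The number of genes called over the whole table was 3346, 1934 at an adjusted p of 0.01, and 2145 to 3475 with 1 library left out, lowest without control replicate 1 and 2178 without knockout replicate 3. Of the 92 tested partner and substrate genes, 37 were called. Across the alternatives 28 to 42 listed genes were called. The 42 came without a filter on low counts, where listed genes outside the 92 were also tested. Of the inhibitors and sorting factors, 1 was called, but 3 without a filter on low counts and 2 by DESeq2, and of the convertase-cleaved proteases and matrix proteins 7, but 4 at an adjusted p of 0.01. The cause was not tested. Over the alternatives, adjusted p ran from 0.274 to 0.97 for Furin, 0.0322 to 0.377 for Tcf7l2, 0.00443 to 0.0532 for Gnptab, 0.0184 to 0.134 for Creb3, 0.0118 to 0.0916 for Nppc, 0.00416 to 0.0654 for Bace1, 2.11e-06 to 0.124 for Mmp11, 0.0113 to 0.786 for Scap, 0.0298 to 0.892 for Srebf2 and 1.46e-04 to 0.364 for Gbp2. The lowest values for Gnptab and Nppc came from the fit without a filter on low counts. Depth limits what can be said of Pcsk1 and Pcsk2: without a filter the log2 fold change of Pcsk1 was 0.97 (edgeR adjusted p = 0.52). No paired analysis was possible because no replicate number in the labels links a knockout library to a control library.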
